A study of Mus musculus with 49 samples.

Results

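The genes described here are 29 that mark or serve T cells, B cells and cytotoxic lymphocytes, chosen by symbol out of 22869 gene symbols measured by RNA-seq in mouse white fat. They comprise 15 T cell genes, 8 B cell genes, the lymphoid cytokine Ltb and cytokine receptor subunit Il2rg, the regulatory T cell factor Foxp3, and the cytotoxic granule genes Gzma, Nkg7 and Prf1. All 29 were present in every table, and for each the transcript row with the highest total was used. The fat came from 2 inbred mouse strains, 129S1/SvImJ and C57BL/6, and no transgene or deletion is named for any group. Subcutaneous fat of the groin, inguinal white adipose tissue (iWAT), was taken after 12 weeks of low fat diet (4 libraries of 129S1/SvImJ, 4 of C57BL/6). Visceral fat beside the testis, epididymal white adipose tissue (eWAT), was taken after the same 12 weeks (4 libraries of 129S1/SvImJ, 5 of C57BL/6) and from chow-fed mice (5 libraries per strain). In a further experiment eWAT came from mice given rosiglitazone, an antidiabetic agonist of the nuclear receptor PPARG, at 36 mg per kg of low fat diet, or the low fat control diet without it (4 libraries per strain and diet). Those mice ate the control diet from 6 to 16 weeks of age and the drug or control diet for the final 2 weeks, and were killed at 18 weeks. The labels do not state the ages of the other groups or whether any library pooled animals.

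T cells recognise antigen through a receptor that signals through the CD3 chains, with CD4 or CD8 as co-receptor. B cells use a membrane immunoglobulin that signals through CD79A and CD79B. White fat holds resident lymphocytes among its stromal cells, and the inguinal depot also surrounds a lymph node, an organ packed with naive T cells and with follicles of B cells. Naive lymphocytes enter a node through high endothelial venules, guided by the chemokine receptor Ccr7.

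The values are whole numbers that the authors had normalized, with a floor of 1, and the read numbers of the libraries are not given. All 43 libraries held totals of 5537632 to 7526303 normalized units. Values stepped more coarsely in the 4 C57BL/6 iWAT libraries, which held 467 to 679 distinct values, against 1293 to 1865 in the other 39. Their lowest value above the floor was 8, 10, 11 and 5 in replicates 1 to 4, so low lymphocyte values could not be resolved there. The steps were even, with lowest values of 1, 8, 15, 22 and 29 in replicate 1. In replicate 4 they were 1, 5, 9, 13 and 17, so values there such as the 17 of Gzma lie few steps above the floor. In 129S1/SvImJ iWAT replicate 1 they were 1, 2, 3, 4 and 5. In iWAT, strain and this coarseness cannot be told apart. The adipocyte list, 10 genes of mature fat cells, had a mean log2(value + 1) of 13.01 to 13.45 in all 8 iWAT libraries. Replicates 1 and 4 of 129S1/SvImJ iWAT and replicate 4 of C57BL/6 iWAT stood apart from the others in the lymphocyte genes. These 3 libraries are named from the members' own values, so comparisons are given with and without them. Separate animals are not named for the replicates, and every p-value therefore reflects only how far these samples spread, which may be technical.

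The promoters of genes for receptor chains and co-receptors that separated those libraries are shown for both lineages. Cd3d and Cd3e encode CD3 chains of the T cell receptor, Cd79a a signalling chain of the B cell receptor, and Cd22 a sialic acid-binding inhibitory co-receptor of B cells. Each sequence is the RefSeq promoter on build GRCm38.p6, 250 bases before to 50 bases after the transcription start, read 5′ to 3′ on the gene's strand. Capitals mark matches, on either strand, to 4 short motifs of lymphoid transcription factors: the ETS family core GGAAG, the RUNX family core TGTGGT, the E-box CAGGTG bound by E proteins, and the octamer ATGCAAAT bound by POU factors.
Cd3d (plus strand, chr9:44981536-44981835): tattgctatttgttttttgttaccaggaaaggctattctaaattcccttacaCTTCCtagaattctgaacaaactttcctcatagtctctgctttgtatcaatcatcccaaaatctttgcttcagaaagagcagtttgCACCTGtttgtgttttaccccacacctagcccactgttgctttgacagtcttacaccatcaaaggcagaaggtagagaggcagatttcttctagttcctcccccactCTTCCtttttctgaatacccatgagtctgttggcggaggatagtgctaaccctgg
Cd3e (minus strand, chr9:45009562-45009861): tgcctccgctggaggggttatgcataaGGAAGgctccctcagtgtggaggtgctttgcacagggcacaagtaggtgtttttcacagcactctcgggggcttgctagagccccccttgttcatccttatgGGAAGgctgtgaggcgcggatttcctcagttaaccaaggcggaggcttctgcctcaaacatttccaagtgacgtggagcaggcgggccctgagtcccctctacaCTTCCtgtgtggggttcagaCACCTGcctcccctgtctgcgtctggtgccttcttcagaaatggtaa
Cd79a (plus strand, chr7:24897247-24897546): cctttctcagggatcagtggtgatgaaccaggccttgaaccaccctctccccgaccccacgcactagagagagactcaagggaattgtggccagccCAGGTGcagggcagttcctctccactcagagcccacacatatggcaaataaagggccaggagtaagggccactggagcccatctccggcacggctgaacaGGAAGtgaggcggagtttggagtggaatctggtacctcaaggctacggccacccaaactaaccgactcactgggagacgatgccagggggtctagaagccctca
Cd22 (minus strand, chr7:30878979-30879278): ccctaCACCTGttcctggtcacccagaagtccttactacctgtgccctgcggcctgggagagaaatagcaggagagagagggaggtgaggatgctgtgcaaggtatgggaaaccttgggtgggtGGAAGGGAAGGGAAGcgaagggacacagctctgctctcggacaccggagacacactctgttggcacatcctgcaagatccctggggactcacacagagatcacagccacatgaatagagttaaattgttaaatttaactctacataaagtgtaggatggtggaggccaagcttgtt
An entry was found for 22 of the 29 genes, and none was found for Cd4, Cd8b1, Cd2, Cd28, Ms4a1, Cd79b and Blk. The ETS core was in 21 of the 22 promoters (95.5%), against 71.1% of the 27025 promoters of all genes listed. The E-box was in 12 (54.5%), against 20.03% of all. The RUNX core was in 7 (31.8%), against 16.9% of all, and the octamer in 0, against 1.75% of all. None of the 4 motifs contains another. All 4 promoters shown hold the ETS core and the E-box, and the 3 ETS cores of Cd22 lie end to end. A match describes these letters only and was not tested as a binding site.

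**Figure D1:**
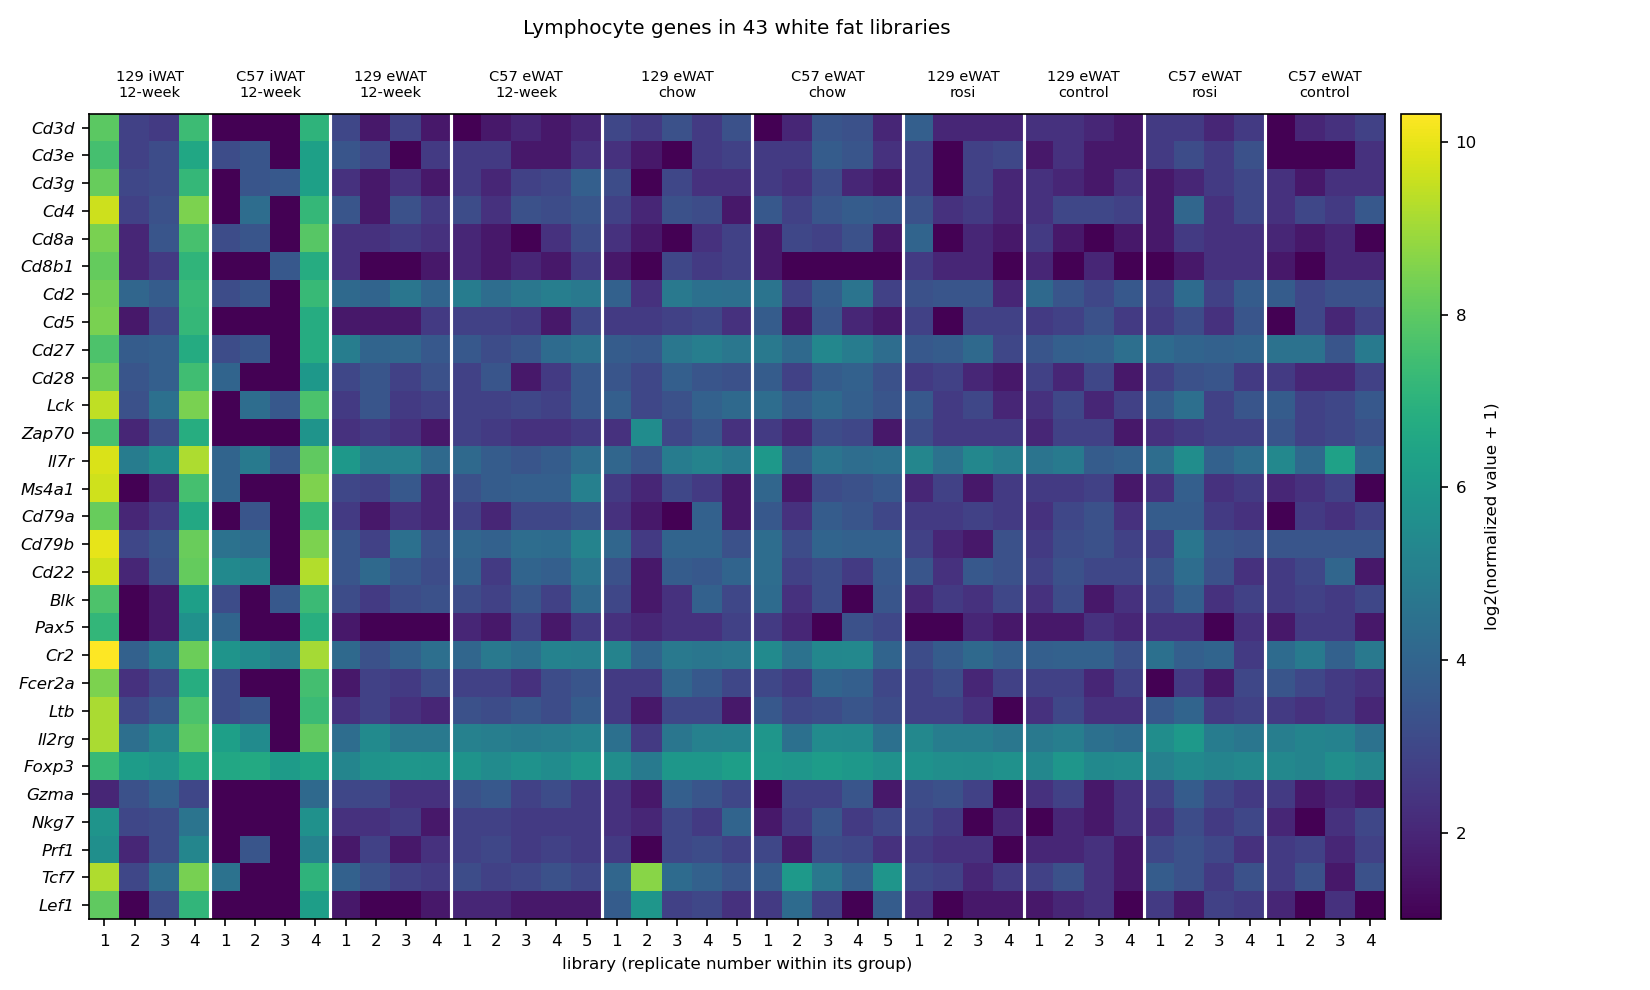
Heat map of log2(normalized value + 1) for the 29 lymphocyte genes (rows) in 43 libraries (columns, by group and replicate number). Replicates 1 and 4 of 129S1/SvImJ iWAT and replicate 4 of C57BL/6 iWAT are bright in nearly every row, with 27 of 29 genes at their 3 highest iWAT values there. Tcf7 reached 403 in replicate 2 of the 129S1/SvImJ chow libraries.

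T cell receptor genes were high in 3 of the 8 inguinal libraries and near the floor in the other 5. Cd3d, a CD3 chain, had 251, 6, 5 and 166 normalized units in 129S1/SvImJ iWAT replicates 1 to 4, against 1, 1, 1 and 133 in C57BL/6 iWAT. Cd4, the helper T cell co-receptor, had 783, 6, 9 and 360 in 129S1/SvImJ iWAT, against 1, 19, 1 and 146 in C57BL/6 iWAT. Cd8a, the alpha chain of the cytotoxic T cell co-receptor, had 347, 3, 10 and 193 in 129S1/SvImJ iWAT, against 8, 10, 1 and 240 in C57BL/6 iWAT. Each strain held both high and low libraries, and the strains overlapped for all 3 genes. The other CD3 chains Cd3e and Cd3g and the CD8 beta chain Cd8b1 were high in the same 3 libraries, at 77 to 288, and between 1 and 11 in the other 5.

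The genes of T cell surface receptors and signalling had the same pattern. Lck, the kinase that starts T cell receptor signalling, had 693, 9, 21 and 350 in 129S1/SvImJ iWAT, against 1, 19, 11 and 203 in C57BL/6 iWAT. Il7r, the interleukin-7 receptor chain that keeps naive and memory T cells alive, had 882, 29, 46 and 573 in 129S1/SvImJ iWAT, against 15, 27, 11 and 263 in C57BL/6 iWAT. Zap70, the kinase recruited to the phosphorylated receptor, had 197, 3, 8 and 112 in 129S1/SvImJ iWAT, against 1, 1, 1 and 56 in C57BL/6 iWAT. The adhesion receptor Cd2, the inhibitory receptor Cd5 and the co-stimulatory receptors Cd27 and Cd28 were also highest in those 3 libraries. Tcf7, a transcription factor of naive and memory T cells, had 595, 7, 19 and 336 in 129S1/SvImJ iWAT, against 22, 1, 1 and 133 in C57BL/6 iWAT. Its relative Lef1 had 267, 1, 8 and 140 in 129S1/SvImJ iWAT, against 1, 1, 1 and 73 in C57BL/6 iWAT. In both genes the 3 high libraries were again clear of the 5 others, and the Tcf7 locus overlaps Skp1, so that its reads could be shared.

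B cell genes were high in the same 3 libraries. Ms4a1, the B cell surface protein CD20, had 795, 1, 3 and 191 in 129S1/SvImJ iWAT, against 15, 1, 1 and 369 in C57BL/6 iWAT. Cd79b, a signalling chain of the B cell receptor, had 1021, 7, 10 and 289 in 129S1/SvImJ iWAT, against 22, 19, 1 and 356 in C57BL/6 iWAT. Cr2, the complement receptor of mature and follicular B cells, had 1282, 14, 27 and 300 in 129S1/SvImJ iWAT, against 56, 44, 31 and 542 in C57BL/6 iWAT. For these genes C57BL/6 replicate 4 lay above 129S1/SvImJ replicate 4, whereas for Cd3d, Cd4, Lck and Tcf7 it lay below. Cd22 had 808, 3, 9 and 274 in 129S1/SvImJ iWAT, against 42, 36, 1 and 608 in C57BL/6 iWAT. Pax5, the transcription factor that commits cells to the B lineage, had 143, 1, 2 and 51 in 129S1/SvImJ iWAT, against 15, 1, 1 and 114 in C57BL/6 iWAT. The kinase Blk, the signalling chain Cd79a and the low-affinity IgE receptor Fcer2a followed the same order of the 3 libraries, and Fcer2a overlaps Trappc5.

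The lymphoid cytokine Ltb, a lymphotoxin subunit needed for lymph node development, had 559, 7, 11 and 205 in 129S1/SvImJ iWAT, against 8, 10, 1 and 162 in C57BL/6 iWAT. Il2rg, the receptor subunit shared by several interleukins, had 561, 20, 36 and 249 in 129S1/SvImJ iWAT, against 76, 44, 1 and 267 in C57BL/6 iWAT. Both genes were thus highest in the 3 libraries, and both were above the floor in 4 of the other 5.

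Of the cytotoxic and regulatory genes, Nkg7 and Prf1 had their highest values in the 3 libraries, and Gzma and Foxp3 did not have them in all 3. Nkg7, a granule membrane protein, had 56, 7, 8 and 23 in 129S1/SvImJ iWAT, against 1, 1, 1 and 52 in C57BL/6 iWAT. Prf1, the pore-forming protein perforin, had 49, 3, 8 and 38 in 129S1/SvImJ iWAT, against 1, 10, 1 and 34 in C57BL/6 iWAT. The 3 libraries were the highest of the 8 for both genes. Gzma, a granule protease, had 3, 9, 14 and 7 in 129S1/SvImJ iWAT, against 1, 1, 1 and 17 in C57BL/6 iWAT, so both high 129S1/SvImJ libraries lay below the low ones. Foxp3 had 155, 71, 58 and 105 in 129S1/SvImJ iWAT, against 95, 101, 68 and 86 in C57BL/6 iWAT. The Foxp3 locus overlaps Ccdc22, so that its reads could be shared, and Gzma overlaps Cdc20b.

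Over all members, 27 of 29 had their 3 highest iWAT values in those 3 libraries, the exceptions being Foxp3 and Gzma. Of all 22869 genes 1437 (6.28%) did. Replicate 1 of 129S1/SvImJ was the highest of the 8 libraries for 28 members, and C57BL/6 replicate 4 for the remaining one, Gzma. In all 3 libraries 28 of the 29 members exceeded every 12-week eWAT library, again with Gzma as the exception, and 6.90% of all genes did so. The mean log2(value + 1) of the members was 8.17, 2.78, 3.47 and 7.10 in 129S1/SvImJ iWAT replicates 1 to 4. It was 2.87, 2.80, 1.76 and 7.04 in C57BL/6 iWAT replicates 1 to 4. In these bulk libraries more lymphocytes and more RNA per lymphocyte cannot be told apart.

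**Figure D2:**
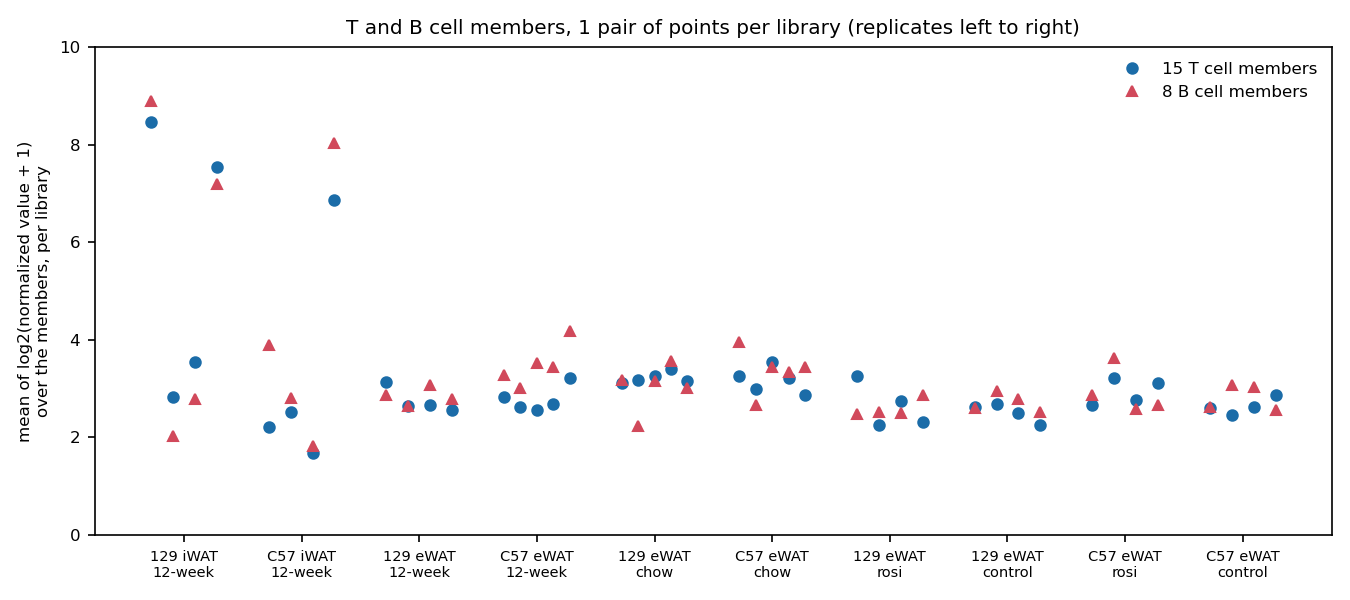
Mean log2(normalized value + 1) of the 15 T cell members (circles) and the 8 B cell members (triangles) in each library, by group, with replicates from left to right. Replicates 1 and 4 of 129S1/SvImJ iWAT and replicate 4 of C57BL/6 iWAT lie between 6.87 and 8.90. B cell genes lie above T cell genes in 129S1/SvImJ replicate 1 and C57BL/6 replicate 4 and below them in 129S1/SvImJ replicate 4.

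The 3 libraries did not share 1 proportion of B to T cell genes. Between the high 129S1/SvImJ libraries, T cell members were 1.51 (Cd3d) to 2.38 (Cd5) times as high in replicate 1 as in replicate 4, with a median of 1.97. B cell members were 2.80 (Pax5) to 4.27 (Cr2) times as high, with a median of 3.11, so the ranges of the lineages did not overlap. In C57BL/6 replicate 4 over 129S1/SvImJ replicate 4, T cell members had ratios of 0.343 (Cd28) to 1.24 (Cd8a) and a median of 0.580. B cell members had ratios of 1.23 (Cd79b) to 2.24 (Pax5) and a median of 1.87, and only Cd8a lay inside their range. Genes outside the membership gave the same order of medians, over those with at least 50 units in 129S1/SvImJ replicate 4, but the ranges of the lineages overlapped. For replicate 1 over replicate 4 of 129S1/SvImJ the median ratio was 2.84 in 18 other B cell genes (range 1.55 to 3.58). It was 1.95 in 14 other T cell genes (range 1.55 to 2.47), against 0.970 over 9603 genes. For C57BL/6 replicate 4 over 129S1/SvImJ replicate 4 the median ratio was 1.40 in the other B cell genes (range 0.929 to 2.83). It was 0.692 in the other T cell genes (range 0.429 to 1.17), against 0.976 over 9603 genes. These are ratios between single libraries with no replicate check, and the values of C57BL/6 replicate 4 move in coarser steps.

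**Figure D3:**
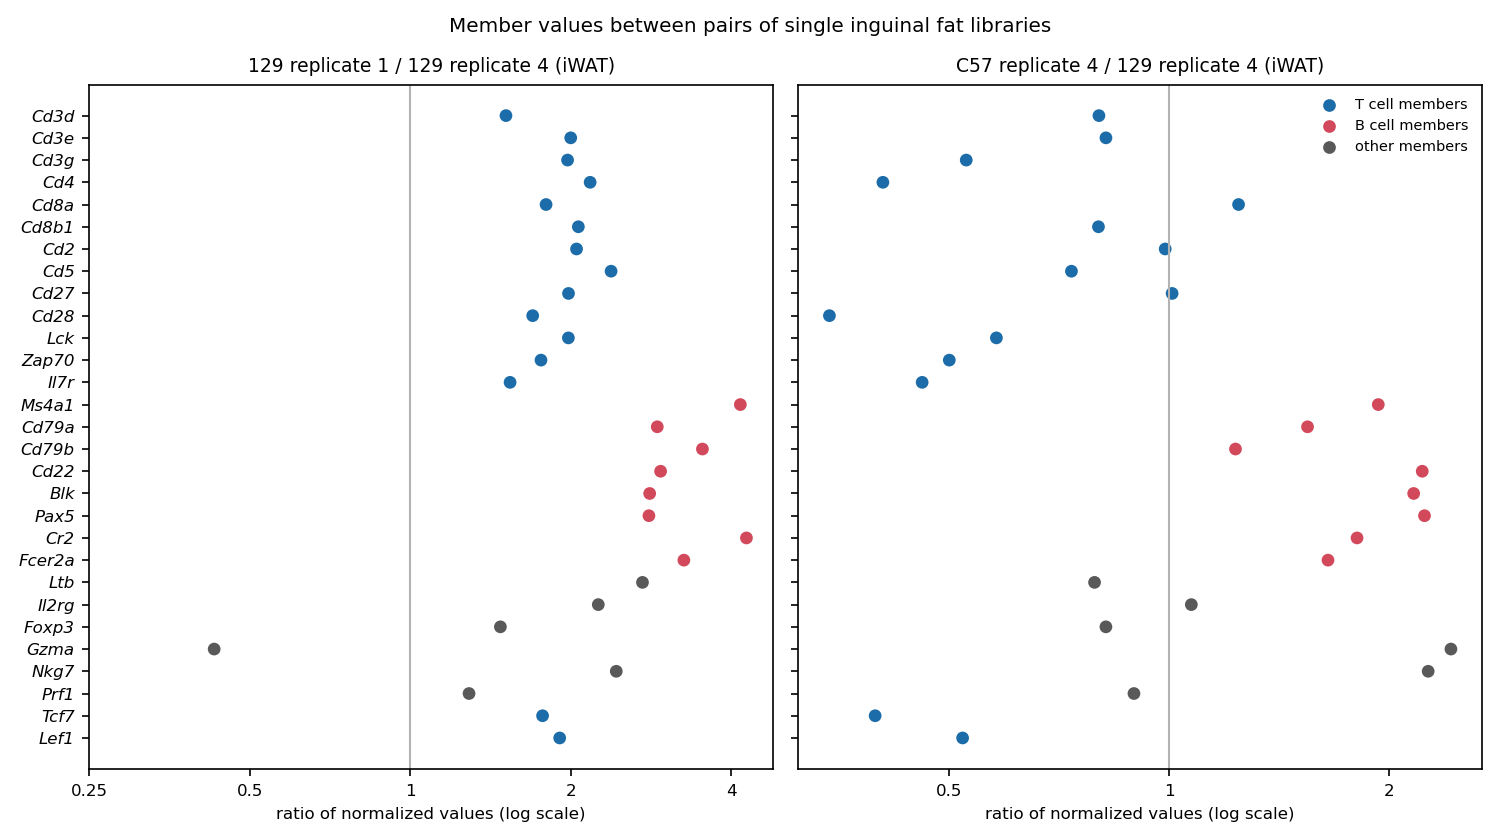
Ratio of normalized values between single iWAT libraries for each of the 29 genes, on a log axis, with T cell members in blue, B cell members in red and the other members in grey. All 8 B cell members lie to the right of all 15 T cell members in the left panel, 2.80 and above against 2.38 and below.

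Other lymphocyte genes were high in the same libraries, and the dendritic cell and cell cycle lists had their highest iWAT means there. The 3 highest values fell there for 20 of 21 other T cell genes, 20 of 21 other B cell genes, 11 of 12 pan-leucocyte genes and 9 of 9 genes of lymphocyte homing and recirculation. They did so for 10 of 12 genes of T cell receptor signalling, 7 of 9 of B cell receptor signalling, 7 of 12 of natural killer and cytotoxic cells, and 2 of 6 of plasma cells. They did so for 2 of 8 dendritic cell, 1 of 11 macrophage and 2 of 11 cell cycle genes. None of the adipocyte, blood or lymphatic endothelial, erythroid, skeletal muscle, skin and gland, or epididymis genes had that order. The dendritic cell list had a mean log2(value + 1) of 5.98, 5.26 and 5.10 in 129S1/SvImJ replicates 1 and 4 and C57BL/6 replicate 4, against at most 4.74 in the other 5. The cell cycle list had 6.20, 5.03 and 4.95 in those 3, against at most 4.84. In the eWAT libraries of the 12-week diet it had 4.36 to 4.98, a range that holds the value of C57BL/6 replicate 4. The lymphatic endothelium list had 5.98 and 5.69 in 129S1/SvImJ replicates 1 and 4, against 4.54 and 4.73 in replicates 2 and 3, and 4.54 to 5.87 over the C57BL/6 libraries with replicate 4 at 5.24. The part of these cells in the members' values was not tested. The macrophage list had a mean log2(value + 1) of 7.39 and 7.52 in 129S1/SvImJ replicates 1 and 4, below the 7.90 to 8.19 of the other 6 libraries. The erythroid list was lowest in the 3 libraries, at 4.88, 5.01 and 4.94, against 5.09 to 6.38 in the other 5. Ccr7 had 642, 4, 11 and 318 in 129S1/SvImJ iWAT, against 8, 1, 1 and 199 in C57BL/6 iWAT. This homing receptor of naive lymphocytes thus followed the members.

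The list of lymph node stroma and high endothelium had its highest means in the same 3 libraries, while its defining genes varied. Its mean log2(value + 1) was 4.98 and 4.04 in 129S1/SvImJ replicates 1 and 4 and 4.07 in C57BL/6 replicate 4, against 2.91 to 3.36 in the other 5 iWAT libraries. Gene by gene, 3 of its 15 members had their 3 highest values there, 1 of them Lta, which lymphocytes also express. The summed level of the list was 1629 to 2983 in 129S1/SvImJ iWAT and 2365 to 2671 in C57BL/6 iWAT, against 1723 to 2192 in the 9 eWAT libraries. Glycam1, a mucin of high endothelial venules, had 44, 4, 1 and 23 in 129S1/SvImJ iWAT, against 1, 10, 1 and 1 in C57BL/6 iWAT. Cxcl13, the chemokine of B cell follicles, had 213, 22, 6 and 50 in 129S1/SvImJ iWAT, against 35, 44, 59 and 73 in C57BL/6 iWAT. Both were highest in 129S1/SvImJ replicates 1 and 4 within that strain, and Glycam1 was at the floor in C57BL/6 replicate 4. Chst4, also in the list, was called lower in iWAT than in eWAT by limma in both strains. Its log2 fold change was -3.12 in 129S1/SvImJ (adjusted p = 0.0117) and -4.87 in C57BL/6 (adjusted p = 8.29e-05). Madcam1 and Fut7, of the same list, were called between depots in neither strain. Ccl19 and Ccl21a, chemokines of the T cell zone, were at 1 or 2 in all 8 libraries, and both belong to a region of near-identical copies in the mouse genome where the counting could lose reads. Whether a lymph node was in the dissected tissue is not recorded in the labels and was not tested, so the libraries are described by their lymphocyte genes. The skeletal muscle list lay 3.20 log2 units above its group median in 129S1/SvImJ replicate 1. Its part in the result was not tested.

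**Figure D4:**
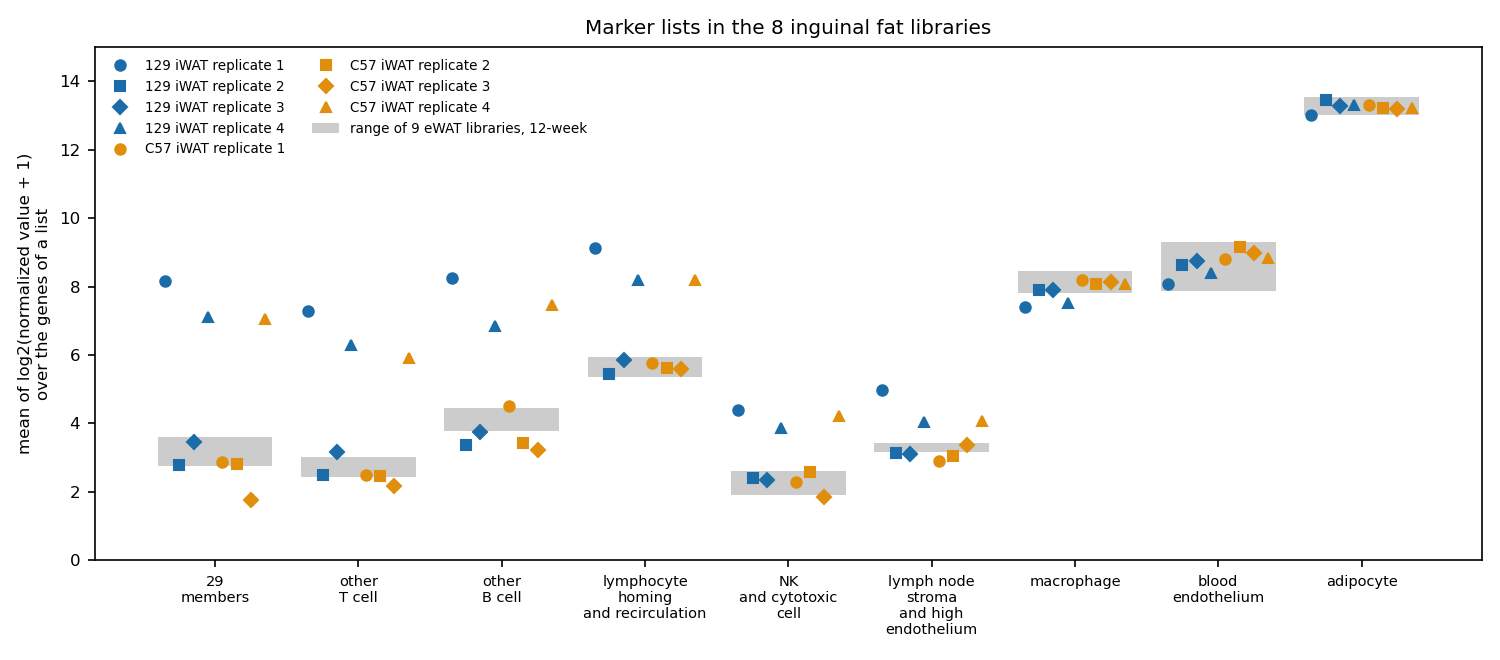
Mean log2(normalized value + 1) over the genes of 9 lists in each of the 8 iWAT libraries (blue, 129S1/SvImJ; orange, C57BL/6; marker shape, replicate), with the range of the 9 eWAT libraries of the 12-week diet in grey. Lymphocyte lists separate 129S1/SvImJ replicates 1 and 4 and C57BL/6 replicate 4 from the other 5, and the adipocyte list lies at 13.01 to 13.45 in all 8.

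Genes outside the lists that followed the members most closely over the 8 iWAT libraries were ranked by the root mean square distance of their log2 profile from the members' mean, after centring each strain. Only the 1124 genes whose centred profile varied widely enough, set against that of the members, were compared. The closest was Rasal3 (distance 0.189 log2 units), followed by Runx3 (0.346), Tbc1d10c (0.348), Slamf1 (0.35) and Folr4 (0.379). The next were Faah (0.399), Acap1 (0.403), Traf3ip3 (0.404), 5830405N20Rik (0.406) and H2-M2 (0.411). Members themselves lay 0.34 (Il7r) to 2.12 (Gzma) from that mean. Rasal3 had 739, 12, 26 and 378 in 129S1/SvImJ iWAT, against 22, 27, 11 and 388 in C57BL/6 iWAT. The ranking used these same 8 libraries, so high values in the same 3 follow from the choice and are no separate result.

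In the strain comparison in iWAT, 0 of 29 members were called by limma at a Benjamini-Hochberg adjusted p under 0.05. An unadjusted p under 0.05 was found for 0 members, against 12.6% of all genes. Of all genes 1.69% were called. All 29 fold changes were positive, 129S1/SvImJ over C57BL/6, from 0.06 (Foxp3) to 2.84 (Tcf7). Their median was 1.86 on the log2 scale, against 0 over all genes. Of the members 27 had their 3 highest iWAT values in 129S1/SvImJ replicates 1 and 4 and C57BL/6 replicate 4. The 29 signs are therefore not separate observations. The smallest adjusted p was 0.615 (Cd28). Cd28 averaged 126 ± 141 in 129S1/SvImJ and 19.5 ± 28.4 in C57BL/6 (SD, n = 4 each; log2 fold change 2.76 ± 1.70 SE), so the spread within each strain exceeded its mean. No member was higher in 129S1/SvImJ without overlap between the strains, whereas 4.11% of all genes were. The authors' deposited table gives a log2 fold change in the other direction, C57BL/6 over 129S1/SvImJ, which was negative for 28 of the 29 members, from -2.62 (Cd4) to 0.40 (Gzma). The authors' deposited table has a p under 0.05 for 14 of them, the smallest 0.00104 (Cd28), and does not say whether this p was adjusted. The share of all genes with such a p was not computed, so the count of 14 has no background to be read against.

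Without the 3 libraries, a choice made after seeing the data, 2 libraries of 129S1/SvImJ and 3 of C57BL/6 remained. 1 of 29 members was then called by limma, Cd3d, against 2.45% of all genes. Cd3d had 6 and 5 in the 129S1/SvImJ libraries left, against 1, 1 and 1 in C57BL/6 (log2 fold change 1.70 ± 0.07 SE, adjusted p = 6.52e-06). The C57BL/6 values were all at the floor, and the next value those libraries could take was 8, 10 or 11. The median over the members was 0.77, with 22 of 29 positive.

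Between depots in 129S1/SvImJ, 0 of 29 members were called by limma in iWAT over eWAT, 11 had an unadjusted p under 0.05 (13.3% of all genes did), and 1.72% of all genes were called. All 29 were positive, from 0.40 (Gzma) to 3.56 (Lck) with a median of 2.65 on the log2 scale, against 0 over all genes. These signs are not separate observations either, since 27 members had their 3 highest iWAT values in the same libraries. The smallest adjusted p was 0.180 (Foxp3, limma). Lck averaged 268 ± 324 in iWAT and 6.5 ± 2.38 in eWAT (SD, n = 4 each), with an adjusted p of 0.275. In 3 of the 29 every iWAT library lay above every eWAT library, and this held for 2.26% of all genes. Without the 3 libraries the median was 0.38 with 22 of 29 positive, and 0 members were called by limma, against 1.22% of all genes. In that fit 3 had an unadjusted p under 0.05, for which no share of all genes is given.

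Between depots in C57BL/6, 0 of 29 members were called by limma, 2 had an unadjusted p under 0.05 (26.1% of all genes did), and 13.1% of all genes were called. The median was 0.35 on the log2 scale, with 21 of 29 higher in iWAT. Foxp3 averaged 87.5 ± 14.4 in iWAT (n = 4) and 51 ± 6.21 in eWAT (n = 5; SD), with no overlap and an adjusted p of 0.0560 (limma). Without the 3 libraries the median was -0.80, with 6 of 29 higher in iWAT and 23 lower. The sign of the median thus changed with replicate 4 of C57BL/6 iWAT left out. In that fit 6 of 29 were called by limma, against 16.8% of all genes. Foxp3 was higher in iWAT (log2 fold change 0.76, adjusted p = 0.0159), and Nkg7, Gzma, Zap70, Cd2 and Cd5 were lower (-2.19 to -1.52, largest adjusted p = 0.0220). Nkg7, Gzma, Zap70 and Cd5 were at the floor of 1 in all 3 C57BL/6 iWAT libraries left, and Cd2 had 8, 10 and 1. In C57BL/6 eWAT Nkg7 had 6, 6, 5, 5 and 5 and Gzma 9, 11, 6, 8 and 5. The lowest values above the floor in the 3 iWAT libraries left were 8, 10 and 11.

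The depot difference was compared between the strains by an interaction term. 0 of 29 members were called by limma, with 0 at an unadjusted p under 0.05 (16.1% of all genes were), and 3.14% of all genes were called. All 29 terms were positive, 129S1/SvImJ minus C57BL/6, with a median of 2.36 on the log2 scale, against 0 over all genes. Most members share the same 3 high iWAT libraries, so these signs are not separate observations. Without the 3 libraries the median was 1.09, with 23 of 29 positive. In that fit Nkg7, Gzma and Zap70 were called by limma (3 of 29, against 4.48% of all genes). Each was at the floor in all 3 C57BL/6 iWAT libraries left. Cd5, also at the floor there, was not called (adjusted p = 0.0977).

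In epididymal fat the members were low on average in every library. Their mean log2(value + 1) lay between 2.50 and 3.62 in the 35 eWAT libraries, below all 3 high iWAT libraries. Only the 9 eWAT libraries of the 12-week diet share their highest value with iWAT, and their means lay between 2.75 and 3.59. The chow and drug experiments have highest values of their own, so their levels are not on the same scale. Single genes were not always low, with Tcf7 at 403 in replicate 2 of the 129S1/SvImJ chow libraries. After 12 weeks of low fat diet 1 of 29 members was called by limma between the strains, against 21.7% of all genes. That member was Ltb, lower in 129S1/SvImJ, and 10.2% of all genes were called in that direction. Ltb had 4, 6, 4 and 3 in 129S1/SvImJ eWAT, against 9, 8, 10, 8 and 12 in C57BL/6 eWAT, without overlap (log2 fold change -1.002 ± 0.18 SE, adjusted p = 0.00779). The call held whichever of the 9 libraries was left out, with a largest adjusted p of 0.0235. The skeletal muscle list lay 6.70 and 2.26 log2 units above its group median in C57BL/6 replicates 3 and 5, and the part of this in the result was not tested beyond those leave-outs.

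All 8 B cell members had negative fold changes in that comparison, from -1.09 (Ms4a1) to -0.19 (Cd22), and 0 were called by limma. In the same libraries 7 of 7 blood endothelium genes were called lower in 129S1/SvImJ, from -1.60 (Flt1) to -0.81 (Tek), and the part of this in the B cell values was not tested. Ms4a1 had 7, 6, 11 and 3 in 129S1/SvImJ eWAT, against 9, 12, 13, 13 and 32 in C57BL/6 eWAT (adjusted p = 0.123), overlapping between 9 and 11. Il7r went the other way, with 61, 32, 33 and 17 in 129S1/SvImJ eWAT, against 17, 12, 10, 12 and 19 in C57BL/6 eWAT (log2 fold change 1.19 ± 0.36 SE, adjusted p = 0.0541). The strains met at 17 to 19, and Il7r was not called. Over the 29 members 10 had an unadjusted p under 0.05, as did 32.5% of all genes, 8 fold changes were positive and the median was -0.38 on the log2 scale, against 0 over all genes. Of the other genes of these cells, 1 of 21 T cell genes was called lower, and 5 of 21 B cell genes were called higher and 4 lower. In T cell receptor signalling 1 of 12 genes was called higher (Rasgrp1, 0.67) and 2 lower (Plcg1, -0.50; Csk, -0.57), and in B cell receptor signalling 4 of 9 were called lower. Of all genes 11.6% were called higher and 10.2% lower. In the authors' deposited table, as C57BL/6 over 129S1/SvImJ, Ltb had a log2 fold change of 1.49 and Ms4a1 of 1.56. There 9 of the 29 members had a p under 0.05, and the share of all genes with such a p was not computed.

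**Figure D5:**
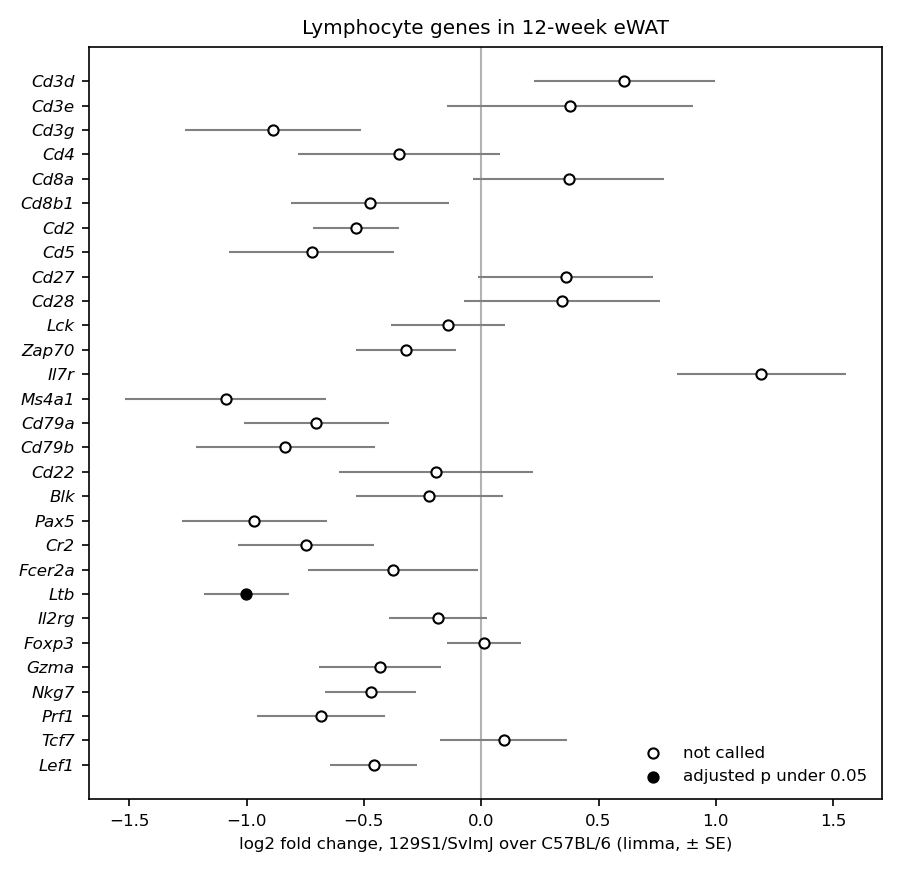
Log2 fold change ± SE, 129S1/SvImJ over C57BL/6, of the 29 lymphocyte genes in eWAT after 12 weeks of low fat diet (limma; 4 and 5 libraries). Ltb, filled, at -1.002, has an adjusted p under 0.05, and all 8 B cell genes lie below 0.

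In eWAT of chow-fed mice 0 of 29 members were called by limma between the strains, 3 had an unadjusted p under 0.05 (17.2% of all genes did), and 4.99% of all genes were called. Ltb had 5, 2, 7, 7 and 2 in 129S1/SvImJ, against 11, 7, 8, 10 and 8 in C57BL/6 (log2 fold change -0.93 ± 0.33 SE, adjusted p = 0.185), meeting at 7. Tcf7 had 16, 403, 18, 14 and 10 in 129S1/SvImJ, against 12, 65, 25, 13 and 57 in C57BL/6. Lef1 had 12, 59, 6, 7 and 4 in 129S1/SvImJ, against 5, 18, 6, 1 and 12 in C57BL/6. Replicate 2 of 129S1/SvImJ stood apart in both. The T cell member Zap70 was also high there, with 4, 45, 7, 10 and 4 in 129S1/SvImJ replicates 1 to 5. The same replicate 2 had no more than 5 units of Cd3d, Cd4 or Cd8a. There the epididymis list lay 9.64 and the skin and gland list 4.71 log2 units above their group medians. In that replicate the adipocyte list had a mean log2(value + 1) of 10.48, against 12.83 to 13.50 in the other 129S1/SvImJ chow libraries. The macrophage list had 6.14 there, against 7.77 to 7.95. The skin and gland list also lay 3.48 above in 129S1/SvImJ replicate 1, and 2.19 and 2.16 above in C57BL/6 replicates 2 and 5. The part of other tissue in the Tcf7, Lef1 and Zap70 values was not tested.

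On the control diet 0 of 29 members were called by limma between the strains, 2 had an unadjusted p under 0.05 (28.2% of all genes did), and 17.5% of all genes were called. Zap70 had the smallest adjusted p, 0.0713, at 4.25 ± 2.06 in 129S1/SvImJ and 8 ± 1.83 in C57BL/6 (SD, n = 4 each). On rosiglitazone 0 of 29 were called by limma between the strains, 6 had an unadjusted p under 0.05 (22.8% of all genes did), and 10.7% of all genes were called. Cd79b had the smallest adjusted p, 0.0636, at 5.00 ± 3.16 in 129S1/SvImJ and 12.2 ± 8.02 in C57BL/6 (SD, n = 4 each). Both comparisons had medians below 0 over the members, -0.09 on the control diet and -0.44 on rosiglitazone.

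For rosiglitazone over the control diet in C57BL/6 eWAT, 1 of 29 members was called by limma, against 2.43% of all genes. That was Cd3e, higher with the drug, a direction called in 1.53% of all genes. Cd3e had 5, 8, 5 and 9 with rosiglitazone, against 1, 1, 1 and 4 on the control diet, without overlap (log2 fold change 1.58 ± 0.42 SE, adjusted p = 0.0484). The call held in 1 of 8 fits without a single library (largest adjusted p = 0.163), that without control replicate 4. Its partners in the receptor were not called, with Cd3d at 5, 5, 3 and 5 with rosiglitazone against 1, 3, 4 and 6 on the control diet, and Cd3g at 2, 3, 5 and 7 against 4, 2, 4 and 4. In 129S1/SvImJ eWAT 0 of 29 were called by limma with the drug, against 5.51% of all genes. There 0 had an unadjusted p under 0.05, against 17.3% of all genes. Cd3e had 6, 1, 6 and 7 with rosiglitazone in that strain, against 2, 4, 2 and 2 on the control diet. The difference in drug response between the strains was called by limma in 0 of 29 members and in 0.21% of all genes. It had an unadjusted p under 0.05 in 1 member and in 9.9% of all genes. For Cd3e the difference in drug response was -0.95 ± 0.59 SE, 129S1/SvImJ minus C57BL/6, on the log2 scale (adjusted p = 0.651). The comparisons of the drug experiment share their control libraries.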

How the data were processed

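RNA-seq of 43 mouse white fat libraries was used. The values are scores, per the file headers 1 normalized whole number per transcript and library, which the authors had computed before deposit with a floor of 1. HOMER and the build mm9 are named in the submitters' processing notes. The highest value is the same in all libraries of an experiment. The 2 tables of the 12-week diet also share it, so depots were compared in 1 fit. The chow table has a highest value of its own. Log2 fold changes and p-values made by the authors stand in the deposited tables too. 6 of 49 samples are not analysed here.

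For each of 22869 symbols the transcript row with the highest total was kept. The scale was log2(value + 1). Fits used limma 3.58.1 (R 4.3.3), 1 mean per group, trend and robust settings, two-sided, in 11 comparisons with Benjamini-Hochberg adjustment over all genes, called at an adjusted p under 0.05. The fits were tested on simulated data. Fold changes of low genes are understated on this scale. Read numbers are not known, so no counting interval is given. Python 3.11.15 was used for summaries. The 29 members, the 19 marker lists and the comparisons were chosen with earlier results of these data known. All members are named, with the 10 genes closest in profile. Of the lists up to 4 genes with the smallest p were allowed by the rule, or those with the highest means. Ccr7, Glycam1, Cxcl13, Ccl19, Ccl21a, Chst4, Madcam1 and Fut7 were named after their values were seen. Overlapping genes come from RefSeq, where 29 of 29 accessions matched.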

Additional observations from a re-analysis of the deposited data

Results flagged for a closer look

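Of 290 group and gene pairs 34 held a library far from the other libraries of its group, by the gap to its nearest neighbour over the group's range. Chance flags about 1 in 20 groups, and repeated whole numbers at low values raise that share. In C57BL/6 iWAT, replicate 4 was far above the other libraries, all at 1, for Cd3d (133), Cd5 (108), Lef1 (73), Zap70 (56), Nkg7 (52) and Gzma (17).

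In 129S1/SvImJ chow eWAT, replicate 2 was high for Tcf7 (403) and low for Il2rg (5), Cd22 (2) and Prf1 (1). That library also had the low adipocyte and macrophage means and the high epididymis list given above. In 12-week 129S1/SvImJ eWAT, Foxp3 was low in replicate 1 (37), Cd8a high in replicate 3 (5), Cd5 high in replicate 4 (5) and Pax5 high in replicate 1 (2). In 12-week C57BL/6 eWAT, Ms4a1 (32) and Lck (11) were high in replicate 5 and Cd4 was low in replicate 2 (4). In C57BL/6 chow eWAT, Cd4 was low in replicate 2 (6) and Cd8b1 high in replicate 1 (2).

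In 129S1/SvImJ eWAT with rosiglitazone, replicate 1 was high for Cd3d (13) and Zap70 (8), and Cd79a was high in replicate 3 (6). Replicate 2 was low there for Cd3e (1) and Cd5 (1), and replicate 4 for Cd2 (3) and Prf1 (1). On the control diet 129S1/SvImJ replicate 2 was high for Cd3e (4) and Ltb (7), with Cr2 low in replicate 4 (9) and Fcer2a low in replicate 3 (3). In C57BL/6 eWAT with rosiglitazone replicate 3 was low for Cd3d (3) and Pax5 (1). On the control diet Cd3e was high in C57BL/6 replicate 4 (4), and Cd3g low in replicate 2 (2).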

How the results depend on the processing

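Counts of called members stayed at 0 under every setting run for rosiglitazone in 129S1/SvImJ, its interaction with strain, and the depot in 129S1/SvImJ. No fold change of a member that was called changed sign. The iWAT strain count was 0 in every planned setting and 1 without the 3 libraries. The chow count became 1 with array weights or without the library set apart by its epididymis list (129S1/SvImJ replicate 2; single libraries left out, 0 to 1). The control diet strain count became 1 with no trend or without 129S1/SvImJ replicate 2 or 3 (0 to 1), and the rosiglitazone strain count 1 with a filter at a group mean of 5 with summed transcript rows, or without 129S1/SvImJ replicate 4 or C57BL/6 replicate 1 (0 to 1). For rosiglitazone in C57BL/6 the count of 1 became 0 with a pseudocount of 8, no trend, summed rows, shifted libraries, the 2 groups alone, or without any single library but control replicate 4 (0 to 1). For the 12-week eWAT strain difference the count of 1 became 2 with a pseudocount of 0, no trend or shifted libraries, and 5 with the filter. In the main fit of that comparison 21.7% of all genes were called. It was 2 without 129S1/SvImJ replicate 2, 3 or 4 and 3 without C57BL/6 replicate 2 (1 to 3). For the depot in C57BL/6 the count became 1 with the filter, shifted libraries or the groups alone, and 6 without the 3 libraries. It was 1 without C57BL/6 iWAT replicate 3 and 2 without replicate 4 (0 to 2). For strain by depot it became 3 without the 3 libraries and 2 without C57BL/6 iWAT replicate 4 (0 to 2). Except for the fits without the 3 libraries, whose shares are given above, no share of all genes called stands beside these counts. They are therefore not read as results about the members. The cause of the changed counts was not tested.

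With the replicate number as a block, the counts became 0 for the 12-week eWAT strain difference (Ltb adjusted p = 0.0890, limma) and 0 for rosiglitazone in C57BL/6 (Cd3e adjusted p = 0.0551), and the count of the other 9 comparisons remained 0. In none of 15 pair sets did every same-numbered pair correlate above 0.1, so the numbers were not taken as pairs.

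Read numbers are not known, and most eWAT values of the members lie close to the floor. The C57BL/6 iWAT libraries show nothing between the floor and their next value of 5 to 11, so low values there could not be compared with those of other groups.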
